A study of Mus musculus with 158 samples.

Results

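The astrocytes described here were single cells of mouse cortical primary cultures kept for 14 days, set against cells of the same kind kept for 12 days. Cells were taken by what the labels give as cell type, tissue, culture and age, and 5 libraries of 14 days and 70 of 12 days met this out of 86 astrocyte libraries and 158 libraries in all. Both groups came from strain C57/BL6/N and received no treatment, and the labels record no genetic change. Cells grew under standard culture conditions, each was collected by patch pipette, and its RNA went through 3 rounds of antisense RNA amplification before sequencing. The labels tie no cell to an animal, a donor or a culture, so each age counts as 1 sample. No test, standard error or p-value is therefore given. Because the 5 cells may share a dish, culture age, culture batch and library batch cannot be told apart. Values from 3 cells of 7 days (labelled C57/BL6) and 8 cells of 15 days (C57/BL6/N) stand beside some results.

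Astrocytes are the glial cells that clear glutamate, buffer potassium, supply lactate and lipids to neurons and line blood vessels with their endfeet. In dissociated culture they go on dividing for some time, and maturation is usually followed through structural proteins such as GFAP, transporters such as GLAST and GLT-1, and the loss of progenitor genes. The genes of these programmes are described below in cells kept 2 days apart.

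The 14-day cells held 16714250 to 38680739 counts per cell, with a median of 24732197, and the 12-day cells held 1089796 to 31668048, with a median of 15205664.5. With each cell thinned to 1000000 counts and at least 5 counts taken as detection, 3014 to 7969 genes were detected in the 14-day cells, with a median of 7211. The 12-day cells had 1286 to 8933, with a median of 4916. Of the 14-day cells, cell 3 stood apart: it had the fewest genes and correlated with the other 14-day cells at r of 0.463 to 0.508 across genes, while cells 2 and 5 reached 0.759. The median r was 0.593 over the 10 pairs of 14-day cells and 0.531 over the 2415 pairs of 12-day cells, and 0.554 over the 350 pairs that cross the ages. The counts of 14-day cells also came from transcripts richer in G and C. Their count-weighted mean GC content was 48.33%, 48.72%, 48.69%, 48.69% and 48.67% in cells 1 to 5. In the 12-day cells it was 46.27% at the lowest, 47.51% at the median and 48.79% at the highest, with an upper quartile of 47.74%. All 5 cells thus lay above the upper quartile, and 7 of 70 12-day cells lay above the lowest of them. In the 24 12-day cells whose title numbers fall within the range of those of the 14-day cells, GC content was at most 48.19%, and 0 of them lay above the lowest 14-day cell. The labels do not say what the title numbers mark.

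**Figure D1:**
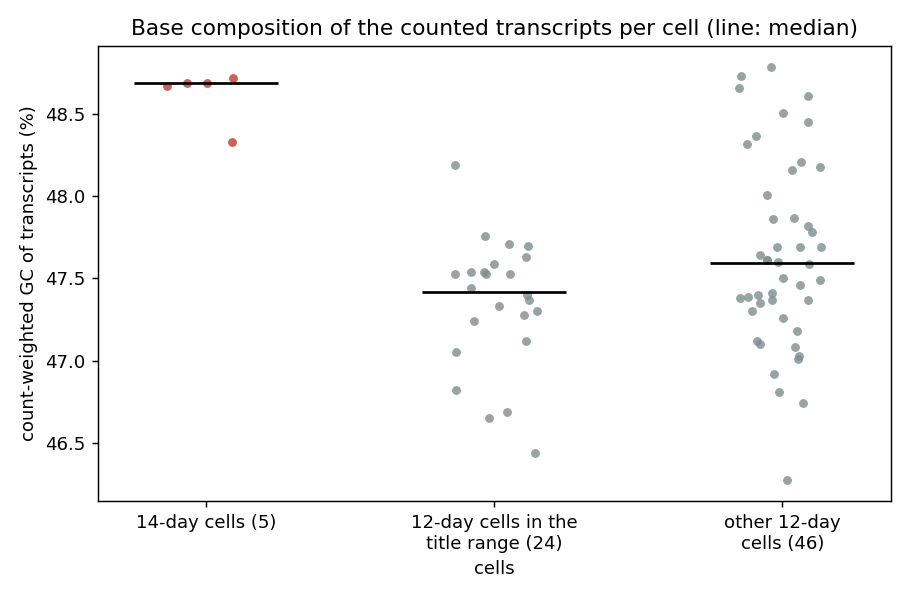
Count-weighted GC content of the counted transcripts (vertical axis, percent, not starting at 0) in each cell: 5 14-day cells, 24 12-day cells with title numbers in the same range and 46 other 12-day cells; the line is the median. The 14-day cells lie at 48.33% to 48.72%, above all 24 cells of the same title range.

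Of the 16662 genes measured (those with 10 or more counts over both ages and any count in 3 or more cells), 2381 (14.3%) were at least 2-fold higher at 14 days and 3999 (24%) at least 2-fold lower. These ratios are log2 ratios of summed CPM plus 1, where CPM is counts per 1000000, 14 days over 12 days. A stricter rule asked for a 2-fold difference also in the mean of the cells' CPM and with each 14-day cell left out. It was met by 526 genes (3.16%) in the higher direction and 3269 (19.6%) in the lower. The rule left out no 12-day cell. A gene high in a single 14-day cell could thus fail, while one high in few 12-day cells could pass as lower. The 526 and the 3269 thus do not compare like with like. With DESeq2 size factors in place of library totals, 1494 genes were 2-fold higher and 4838 were 2-fold lower, and the median of all genes moved to -0.26. The 12-day sums rest on few cells. For the median gene, the 5 highest of the 70 12-day cells held 71.2% of the 12-day counts, and when medians of the cells' CPM replaced the sums, a comparison chosen after seeing the data, 4370 genes were 2-fold higher and 645 were 2-fold lower. The split of higher against lower genes thus turned round between sums and medians. Genes with a 12-day median of 0 could not come out lower in medians, and 8893 of the 16662 had one above 0. The 4370 and the 645 are therefore not a like comparison, and the cells' own values are given below. The median log2 ratio of all measured genes was -0.09 in sums.

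The ages overlapped in every gene: 0 genes had all 5 14-day cells above every 12-day cell, and 0 had them all below. All 5 14-day cells lay above the 12-day upper quartile for 144 genes (0.864% of 16662), and for 0 genes did they all lie below the lower quartile. No cell can lie below a 12-day value of 0, so genes with a lowest cell or lower quartile of 0 could not count as lower. Only 8893 of the 16662 genes had even a 12-day median above 0, so the 144 and the 0 are not a like comparison. Against the 24 12-day cells of the same title range alone, the 144 became 306, and with other scaling of the cells they became 93 (TMM factors) or 83 (DESeq2 size factors). Among the 8893 genes with a 12-day median above 0, all 5 lay above that median for 761 (8.56%) and below it for 1.34%. The sets differed in base composition: the transcripts of the 144 had a median GC content of 55.2%, those of the 761 had 52.5%, those of the genes below it had 45.1%, and those of all measured genes 49.2%. With genes split by transcript GC content into low, middle and high groups of equal size, the share of genes with all 5 cells above the upper quartile was 0.174% in the low, 0.581% in the middle and 1.9% in the high group. Among the genes of each group with a 12-day median above 0, the share with all 5 cells below that median also differed. It was 2.08% in the low, 1.5% in the middle and 0.437% in the high group. The part of base composition in the gene differences below was not tested.

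From these genes, 10 per direction were chosen after their values were seen, by how far the nearest 14-day cell stood from the 12-day upper quartile or median. Higher ones had at least 100 CPM in every 14-day cell, and lower ones a 12-day median of at least 100. Fgf1 (chr18:38838673-38929472, GRCm38), which encodes acidic fibroblast growth factor, had 600, 993, 990, 728 and 649 CPM in 14-day cells 1 to 5, against 0 at the lowest, 49.6 at the median and 1398 at the highest in the 12-day cells. The 5 values lay within a narrow range, and 6 of 70 12-day cells exceeded the lowest of them. Pea15a (chr1:172196728-172206804), which encodes an astrocyte phosphoprotein that binds ERK, had 3053, 6082, 10793, 2493 and 4010 CPM in the 14-day cells. The 12-day cells had 69.5 at the lowest, 1406 at the median and 5057 at the highest. Of the 14-day cells, 2 lay above every 12-day cell and 3 within the upper part of the 12-day range. Oaz2, antizyme 2 of polyamine synthesis, had 970, 349, 542, 499 and 279.7 CPM at 14 days, against a median of 52.4 and a highest value of 700 at 12 days, with a log2 ratio of 2.66 in sums. In all, 2 of 70 12-day cells exceeded the lowest 14-day value.

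Nisch, an integrin-binding regulator of cell migration, had 591 to 1143 CPM at 14 days, against a 12-day median of 194 and upper quartile of 356. Ddr1, a receptor tyrosine kinase for collagen, had 107 to 241.3 CPM at 14 days, against a 12-day median of 20.7. Both groups of values overlapped at the top, where 6 and 4 12-day cells exceeded the lowest 14-day cell. Atf5, a stress-responsive transcription factor of the ATF family, had 105 to 841 CPM, against a 12-day median of 19.3. Emc8, a subunit of the endoplasmic reticulum membrane protein complex, had 208 to 870 CPM, against a 12-day median of 63. Mien1, a membrane-anchored protein linked to cell migration, had 132 to 276.4 CPM, against a 12-day median of 15.7, and its highest 12-day cell reached 8706. Atp6v1f, a subunit of the proton pump that acidifies lysosomes, had 139 to 398 CPM, against a 12-day median of 49.8, and its log2 ratio in sums was 0.77. Pkm, the last of the 10, is given with the glycolysis genes. At 15 days the medians were 194 CPM for Fgf1, 689 for Pea15a, 7.83 for Oaz2 and 216 for Nisch, each nearer to the 12-day median than to the 14-day cells. At 7 days the medians were 1.39, 2513, 98.3 and 93.8 CPM for the same genes.

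In the lower direction, Rhoq, a small GTPase, had 6.91, 39.1, 0.179, 19 and 16 CPM in the 14-day cells, against a median of 114.2 and a highest value of 1386 in the 12-day cells. Wwtr1, which encodes TAZ, a coactivator that acts with YAP, had 37.9, 80.4, 0, 79 and 47.5 CPM at 14 days, against a 12-day median of 182. Tm4sf1, a membrane protein raised in reactive astrocytes, had 2.55, 75.3, 11.6, 292.3 and 308.5 CPM at 14 days. Its 12-day cells had a median of 476 and a highest value of 5724. In all 3 genes the 14-day values fell inside the 12-day range but below its middle. Fam162a, a mitochondrial protein induced by hypoxia, had 1.32 to 98.2 CPM, against a 12-day median of 254. Uba3, the catalytic subunit of the enzyme that activates NEDD8, had 0.299 to 77.8 CPM, against 118. Rabggtb, a subunit of the enzyme that attaches lipid to Rab proteins, had 0.239 to 71.2 CPM, against 131. Cetn3, a centrin of the centrosome, had 0.299 to 93.9 CPM, against 168, and Sfr1, a DNA recombination factor, had 5.86 to 140 CPM, against 232. Rps27l, a ribosomal protein paralog induced by p53, had 5.98 to 374 CPM, against 599. Lars2, the mitochondrial leucyl-tRNA synthetase, had 3.41 to 98.8 CPM, against 194, and is uncertain because its transcript shares sequence with a mitochondrial ribosomal RNA. At 15 days the median of Rhoq was 15.9 CPM and that of Fam162a 163, both under their 12-day medians, while that of Tm4sf1 was 1114 and that of Wwtr1 204, both above them.

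**Figure D2:**
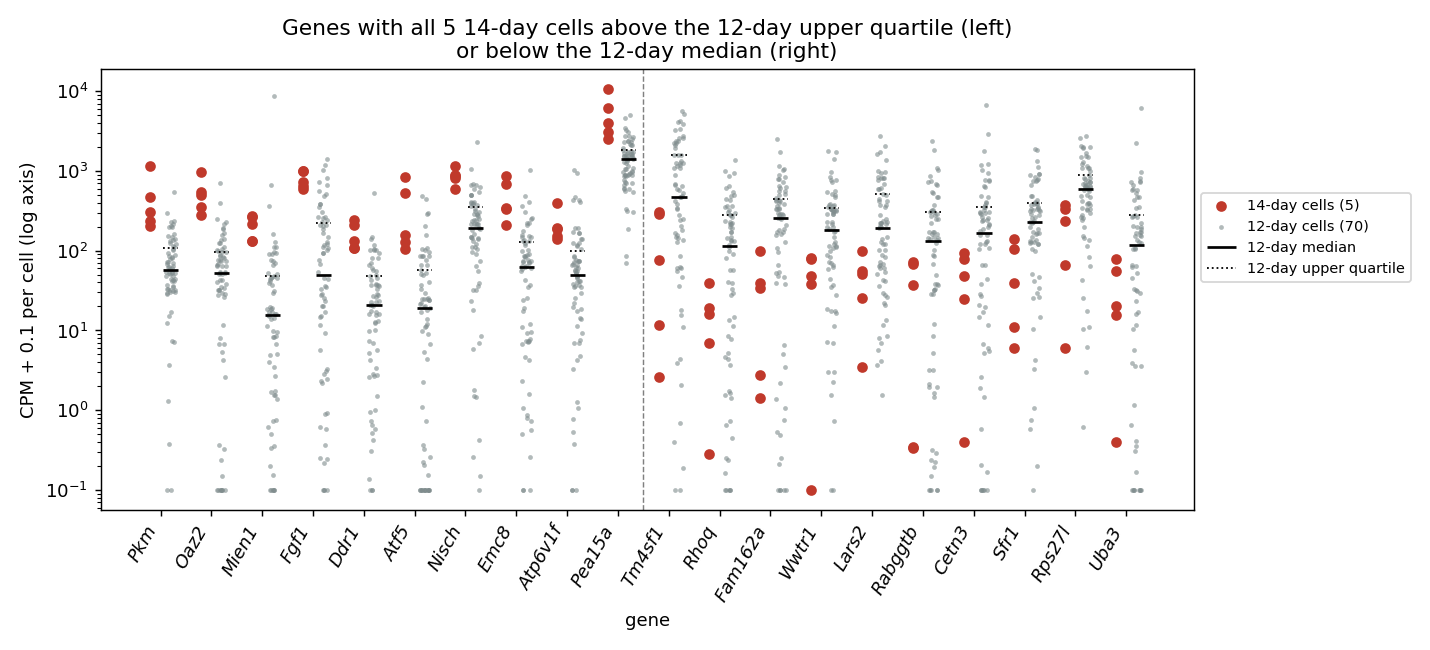
CPM plus 0.1 per cell (log axis) for 10 genes with all 14-day cells above the 12-day upper quartile (left of the dashed line) and 10 with all 14-day cells below the 12-day median (right). Red points are the 5 14-day cells, grey points the 70 12-day cells, with the 12-day median and upper quartile as lines. The 14-day cells lie at the upper or lower side of the 12-day cells, and the ranges overlap in every gene shown.

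At least 10 of 19 astrocyte markers were detected in all 5 14-day cells and in 50 of 70 12-day cells. Their summed level was above the 12-day median of 3193 CPM in 4 of 5 14-day cells. In cell 4 it was 1252 CPM, under the 12-day lower quartile of 1871. Fibroblast and meningeal markers summed to 15193 CPM in cell 4, over the 12-day upper quartile of 6150. Of the astrocyte markers, the 14-day cells had 10, 16, 10, 14 and 16 detected, against a 12-day median of 11 and range of 1 to 17. Genes of all kinds detected in the same cells numbered 4540, 7969, 3014, 7693 and 7211, against a 12-day median of 4916. Cells 2, 4 and 5, with the most markers, thus also had the most genes. Over all measured genes, the share of cells detected was larger at 14 days for 8012 and smaller for 5994. The list's median log2 ratio was 0.05, with 5 members at least 2-fold higher and 4 at least 2-fold lower, against 14.3% and 24% of all genes. Gfap (chr11:102887336-102900912, GRCm38), the intermediate filament of mature and reactive astrocytes, had 330, 98.2, 172, 7.37 and 1845 CPM in the 14-day cells, and 0 at the lowest, 2.16 at the median and 962 at the highest in the 12-day cells. All 5 cells lay above the 12-day median, and 4 of them above its upper quartile of 66.9. Gfap was detected in 5 of 5 14-day cells (95% Clopper-Pearson interval 47.8% to 100%) and in 33 of 70 12-day cells (47.1%, 35.1% to 59.5%). Summed over cells it stood at 471 CPM at 14 days and 103 CPM at 12 days, a log2 ratio of 2.18 that was 0.35 without cell 5. Its median was 0.325 CPM at 7 days and 1.02 CPM at 15 days.

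Aqp4, the water channel of astrocyte endfeet, had 156, 942, 285, 24.8 and 827 CPM at 14 days, against a 12-day median of 22.5 and highest value of 1620, and every 14-day cell lay above that median. Glul, glutamine synthetase, had 937, 995, 4486, 57.5 and 1450 CPM at 14 days, against 0.417, 177 and 2150 CPM as the lowest, median and highest 12-day cells. Aldoc, the aldolase of astrocytes, had 2.75, 1457, 783, 173 and 803 CPM, against a 12-day median of 54. In each of these genes 1 14-day cell (cell 4 for Aqp4 and Glul, cell 1 for Aldoc) was far below the others. Slc1a2, the GLT-1 glutamate transporter, had 1451, 964, 0.12, 0.284 and 302.6 CPM, and so split the 14-day cells, against a 12-day median of 15.6. Slc1a3, the GLAST transporter, had 141, 989, 1414, 60 and 872 CPM, against a 12-day median of 698, and Vim, vimentin, had 3764 to 9059 CPM against a 12-day median of 5503. Their 14-day cells lay on both sides of those medians. Aldh1l1, a folate enzyme used as an astrocyte marker, stood at 32 CPM at 14 days and 68.8 CPM at 12 days in sums, but 4 of 5 14-day cells were above the 12-day median of 1.04.

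Among progenitor genes, 0 of 15 were at least 2-fold higher and 3 (20%) at least 2-fold lower, against 14.3% and 24% of all genes, so the share lower was near that of all genes. The list's median log2 ratio was 0.05. The members past 2-fold were transcription factors of cortical progenitors and a receptor. Lhx2 had 12.8, 226, 84.6, 43.8 and 194 CPM at 14 days, against a 12-day median of 311 and highest value of 4796, and all 5 cells were below that median. Sox2 had 34.6, 156, 402, 144 and 116.8 CPM, against a 12-day median of 279, with 1 of 5 cells above it. Ptprz1, a receptor phosphatase of glia, had 305, 561, 0, 306 and 265.4 CPM, against a 12-day median of 269.3, with 3 of 5 cells above it.

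**Figure D3:**
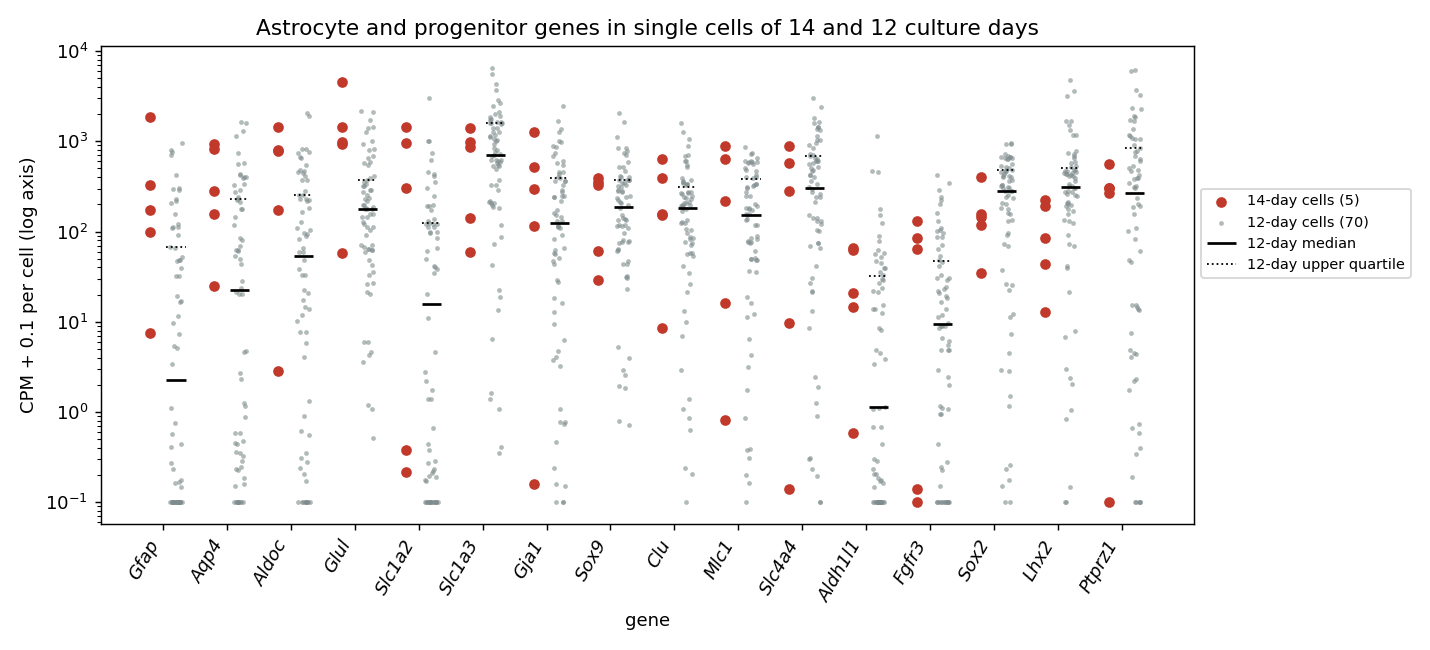
CPM plus 0.1 per cell (log axis) of astrocyte and progenitor genes; red points are the 5 14-day cells and grey points the 70 12-day cells, with the 12-day median and upper quartile as lines. Gfap and Aqp4 have all 5 14-day cells above the 12-day median and Lhx2 has all 5 below it.

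Most markers of microglia were at or near 0 in the 14-day cells, while some of those of neurons and fibroblasts were present in both ages. Of 12 microglia markers, 11 were at least 2-fold lower in sums, against 24% of all genes, and C1qb, C1qc, Csf1r and Fcer1g had 0 counts in all 5 cells. The 12 markers summed to 0.299 to 83.5 CPM in the 14-day cells, with a median of 21.5, and to 0 to 6408 CPM in the 12-day cells, with a median of 19.2, and 3 of 5 14-day cells lay above that median. The 14-day cells had 0, 1, 0, 1 and 1 of the markers detected, against a 12-day median of 1 and highest of 10. At least 6 of the 12 markers were detected in 0 of 5 14-day cells and in 4 of 70 12-day cells (5.71%, 1.58% to 14%). The 0 of 5 allows a share of up to 52.2%, so this difference was not detectable with 5 cells even if they are taken as independent. Ctss, a cysteine protease of microglia, was at 0.0782 CPM (0.0375 to 0.144) at 14 days and 90 CPM (89.4 to 90.5) at 12 days, and 98.8% of the counts of the median microglia marker lay in 5 12-day cells. Neuron markers summed to 120.4 to 2536 CPM in the 14-day cells and to 0.0616 to 4152 CPM in the 12-day cells, with a median of 529.8. Of these, 1 to 5 of 17 were detected in the 14-day cells and 0 to 5 in the 12-day cells, with Dcx, Ina and Nrgn at 0 in all 14-day cells. Stmn2, a microtubule regulator of growing neurites, had 0.607, 370.4, 0.718, 1250 and 2467 CPM at 14 days, against a 12-day median of 131.6 and highest value of 3737. This gene alone made up most of the neuron marker sums of cells 2, 4 and 5, which were 636.5, 1363 and 2536 CPM. It made up little of those of cells 1 and 3, which were 120.4 and 479.7 CPM. Fibroblast and meningeal markers summed to 1011 to 15193 CPM in the 14-day cells and to 196.4 to 34076 CPM in the 12-day cells, with a median of 4002. Of these 11 markers, 4 (36.4%) were at least 2-fold higher and 4 (36.4%) at least 2-fold lower in sums, against 14.3% and 24% of all genes. Col1a2, a chain of type I collagen, had 1056 CPM in cell 4 and 0 to 85 in the other 14-day cells, against a 12-day median of 0.149. The part of such RNA in the other results was not tested.

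Of 20 genes of G2/M and mitosis, 18 were at least 2-fold lower at 14 days, against 24% of all genes, all 18 by the stricter rule (19.6% of all genes), and 1 was at least 2-fold higher. The median log2 ratio was -4.33 in sums. Ccnb2, Aurkb and Plk1, a cyclin and a pair of mitotic kinases, had 0 counts in all 5 14-day cells. Ccnb2 stood at 63.2 CPM at 12 days (95% Poisson interval 62.7 to 63.7, counting error only), so it was at least 2695-fold lower at 14 days, with 3 counts over the 5 cells as the floor. Plk1 stood at 7.12 CPM at 12 days and was at least 303.4-fold lower. These 12-day levels came from few cells. Ccnb2 was detected in 16 of 70 12-day cells, with a median of 0.0232 CPM and 82.8% of its counts in 5 cells, and Plk1 in 10 of 70, with a median of 0 and 81.3% in 5 cells. With genes at 0 set at their bound, the list's median was -4.54, and that of the microglia markers -4.72. Mki67, the proliferation antigen Ki-67, had 0, 0.0446, 0, 6 and 0 CPM at 14 days, against a 12-day median of 0.14 and highest value of 1604. Top2a, the topoisomerase of dividing cells, had 0, 0.0891, 0, 16.2 and 1.38 CPM, against a 12-day median of 1.23 and highest value of 1901.

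The typical 12-day cell also held few of these transcripts. The 14-day cells had 2, 1, 2, 9 and 3 of the 20 genes detected, and the 12-day cells had a median of 2 and a range of 0 to 20. In medians of the cells' CPM the list's median log2 ratio was 0, but genes with a 12-day median at or near 0 could hardly be lower there. At least 10 of the 20 genes were detected in 0 of 5 14-day cells, which allows a share of up to 52.2%, and in 12 of 70 12-day cells (17.1%, 9.18% to 28%). Even with the cells taken as independent, a difference in the share of dividing cells was not detectable at this number, and each age remains 1 sample. At other ages such cells were 3 of 3 at 7 days and 4 of 8 at 15 days. Cdk1, the kinase that starts mitosis, had 0, 66.3, 185, 21.7 and 16.2 CPM at 14 days, against a 12-day median of 0.935, and 4 of 5 cells lay above that median. Its summed log2 ratio was -2.30, and the highest 12-day cell held 8404 CPM. Kif11, a spindle motor, was higher in sums at 196 CPM in 14-day cells and 15.5 CPM in 12-day cells, but nearly all of this came from cell 1 with 1011 CPM, while the others held 0 to 0.179.

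The promoters of Ccnb2 and Plk1, 2 of the 3 mitotic genes at 0 in all 14-day cells, are shown because promoters of mitotic genes are known for CCAAT boxes and CHR elements. These are the 250 bases before the start of the gene, from RefSeq on GRCm38.p6, 5′ to 3′ on the gene's strand. Capitals mark the CCAAT box (CCAAT or ATTGG), bound by NF-Y, and the CHR element (TTTGAA or TTCAAA). Ccnb2 lies on the minus strand at chr9:70421555-70421804 and Plk1 on the plus strand at chr7:122159185-122159434.
Ccnb2: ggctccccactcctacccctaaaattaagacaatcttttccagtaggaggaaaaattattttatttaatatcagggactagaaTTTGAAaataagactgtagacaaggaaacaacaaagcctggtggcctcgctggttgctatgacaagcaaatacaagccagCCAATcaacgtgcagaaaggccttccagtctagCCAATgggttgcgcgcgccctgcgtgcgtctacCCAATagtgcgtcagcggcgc
Plk1: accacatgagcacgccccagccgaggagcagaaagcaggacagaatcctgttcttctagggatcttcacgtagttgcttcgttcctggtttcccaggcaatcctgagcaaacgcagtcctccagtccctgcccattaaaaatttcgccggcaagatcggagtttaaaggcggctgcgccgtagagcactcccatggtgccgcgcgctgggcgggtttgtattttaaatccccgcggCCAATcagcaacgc
A search of both strands found 3 CCAAT boxes and 1 CHR element in Ccnb2 and 1 CCAAT box in Plk1. Of the 17 mitotic genes with a promoter in the table, 15 held a CCAAT box in this window (88.2%), against 34.5% of all 27025 promoters. The CHR letters were in 7 of 17 (41.2%), against 16.3% of all. These matches describe the windows only.

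Of 18 genes of G1/S and DNA replication, 16 were at least 2-fold lower and 1 was at least 2-fold higher, against 24% and 14.3% of all genes, and 15 were lower by the stricter rule, against 19.6% of all genes. The list's median log2 ratio was -2.53 in sums and 0 in medians of cells, where a gene with a 12-day median of 0 cannot be lower. The 14-day cells had 1, 9, 1, 7 and 4 of them detected, against a 12-day median of 4 and range of 0 to 18. At least 9 were detected in 1 of 5 14-day cells (20%, 0.505% to 71.6%) and 15 of 70 12-day cells (21.4%, 12.5% to 32.9%). Pcna, the sliding clamp of DNA polymerase, had 8.57, 76.5, 0.0598, 98.3 and 233.8 CPM at 14 days, against a 12-day median of 110, with 1 of 5 cells above it. Rrm2, a subunit of ribonucleotide reductase, had 45.9 CPM in cell 5 and at most 0.267 in the others, against a 12-day median of 0.659 and highest value of 4036.

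Upstream of these, the D cyclins and their inhibitors were divided. Ccnd2, cyclin D2, had 2266, 3094, 2577, 4143 and 5108 CPM at 14 days, against 0.561, 1275 and 6043 CPM as the lowest, median and highest 12-day cells, and all 5 cells lay above the 12-day upper quartile of 2154. Ccnd1, cyclin D1, had 4684, 578, 377, 3244 and 3107 CPM, against a 12-day median of 1466, and its cells lay on both sides. Cdkn2a, which encodes the inhibitors p16 and ARF, had 45.2, 0.624, 1.38, 48.1 and 15.2 CPM, against a 12-day median of 0.18 and highest value of 37.3. All 5 cells were above that median and 2 above every 12-day cell. Cdkn2d, the inhibitor p19, had at most 2.29 CPM at 14 days, against a 12-day median of 1.62, and was detected in 0 of 5 14-day cells and 27 of 70 12-day cells. Cdkn1c, the inhibitor p57, was lower in sums at 0.00782 CPM, against 47.4 CPM at 12 days, but its 12-day median was 0 and 94.5% of its 12-day counts lay in 5 cells.

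**Figure D4:**
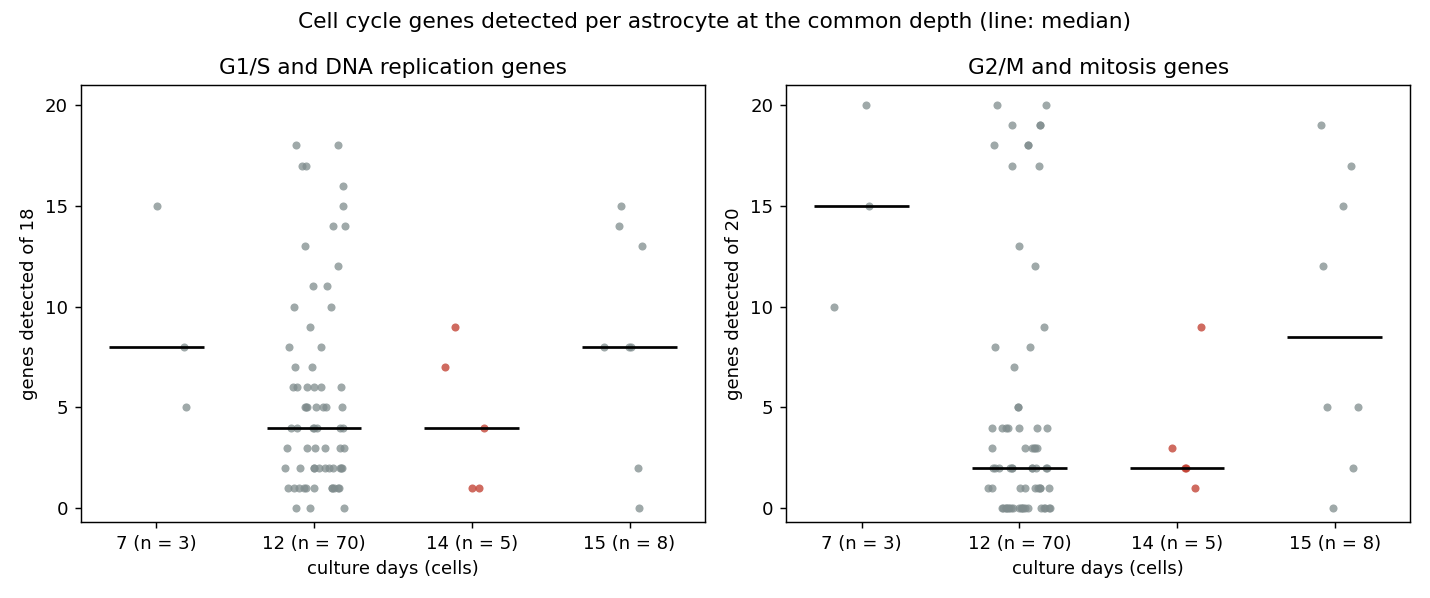
Number of cell cycle genes detected (at least 5 counts at 1000000 counts per cell) in each astrocyte by culture days, left for 18 genes of G1/S and right for 20 of G2/M and mitosis; red points are 14-day cells and lines are medians. The 14-day medians equal those of 12 days (4 and 2), and 12 of the 70 12-day cells detect at least 10 of the mitotic genes.

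Of 19 glycolysis genes measured, 5 (26.3%) were at least 2-fold higher and 1 (5.26%) at least 2-fold lower, against 14.3% and 24% of all genes. By the stricter rule these were 3 and 1, against 3.16% and 19.6% of all genes. The list's median log2 ratio was 0.29 in sums and 1.27 in medians of cells. Pkm, pyruvate kinase, had 235, 206, 1163, 467 and 307.6 CPM at 14 days, against a 12-day median of 57.1, upper quartile of 108 and highest value of 545. All 5 cells lay above the upper quartile. Pfkm, a phosphofructokinase, had 111, 90.2, 55.8, 35.8 and 21.7 CPM, against a 12-day median of 7.07, and Aldoa, the general aldolase, had up to 373 CPM, against a 12-day median of 137 and upper quartile of 222.2, with all 5 cells above that quartile. Gapdh had 35 to 128 CPM, against a 12-day median of 12.4 and upper quartile of 28.2, with all 5 above that quartile. Its level is uncertain because the mouse genome holds many near-identical copies. Hk2, an inducible hexokinase, went the other way with 0.0404, 7.26, 0, 2.38 and 0.87 CPM, against a 12-day median of 6.38 and highest value of 1806, and 1 of 5 cells was above that median.

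Genes of BMP, Id and Notch signalling gave 3 of 15 (20%) at least 2-fold higher and 2 (13.3%) at least 2-fold lower, not far from the 14.3% and 24% of all genes, with a median log2 ratio of 0.25. Id proteins are targets of BMP signals that block neuronal differentiation factors. Id3 had 921, 1480, 2473, 1321 and 683 CPM at 14 days, against 0.0481, 399 and 3493 CPM as the lowest, median and highest 12-day cells, and all 5 lay above the 12-day upper quartile of 663. Id1 had 382, 401, 399, 108 and 170 CPM, against a 12-day median of 73.7, and all 5 lay above it. At 15 days the medians were 115.1 CPM for Id3 and 31.5 CPM for Id1. Hey1, a Notch effector, had 10.9, 423, 140, 21.8 and 643 CPM, against a 12-day median of 18.4, with 4 of 5 above it. Jag1, a Notch ligand, had 0, 8.69, 0.12, 1.27 and 5.06 CPM, against a 12-day median of 2.64 and highest value of 584, and was 2-fold lower by the stricter rule.

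Stress and reactivity genes had no common direction. Of 21 reactive astrocyte genes 7 (33.3%) were at least 2-fold higher and 6 (28.6%) at least 2-fold lower, against 14.3% and 24% of all genes. Hspb1, a small heat shock protein, had a log2 ratio of 1.97 that was -0.04 without cell 1, which held 396 CPM. Lcn2, a secreted siderophore-binding protein of reactive astrocytes, had 0, 19.1, 0, 0 and 27 CPM at 14 days and was detected in 1 of 70 12-day cells. Among 16 chaperones the counts were 4 (25%) higher and 5 (31.2%) lower, against the same 14.3% and 24% of all genes. Hspb8, a partner of BAG3, had 788, 1676, 2717, 92.5 and 1740 CPM, against a 12-day median of 198, with 4 of 5 above it, and Hspd1, the mitochondrial chaperonin, had 6.27, 112.5, 0, 29.4 and 25.3 CPM, against 97.8, with 1 of 5 above it. Gpx4, the peroxidase that removes lipid peroxides, had 260, 188, 720, 110 and 115.3 CPM, all above the 12-day upper quartile of 83. Slc7a11, the cystine transporter, was 0.0395 to 0.446 CPM at 14 days, against a 12-day median of 0.0409, and its summed log2 ratio was -5.01, with 814 CPM in the highest 12-day cell. Ifitm3, an antiviral membrane protein, had 131, 6.28, 11.7, 35.5 and 20.9 CPM, all above the 12-day upper quartile of 5.83, while 4 of the 15 interferon genes (26.7%) were at least 2-fold higher and 6 (40%) at least 2-fold lower, against 14.3% and 24% of all genes.

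Of 16 genes that maintain mitochondrial DNA, 4 (25%) were at least 2-fold higher and 5 (31.2%) at least 2-fold lower, against 14.3% and 24% of all genes. Polg, the mitochondrial DNA polymerase, had 0, 94.2, 81.8, 80.4 and 19.2 CPM at 14 days, against a 12-day median of 3.1, with 4 of 5 above it. Lonp1, a protease of the mitochondrial matrix, had 65.2, 360, 0, 54.2 and 315.5 CPM, against a 12-day median of 26.6. Tfam, which packages mitochondrial DNA, had 298 CPM in cell 2 and at most 2.33 in the others, against a 12-day median of 9.68. Of 30 nuclear genes of the respiratory chain, 2 (6.67%) were at least 2-fold higher and 2 (6.67%) at least 2-fold lower. Of 25 ribosomal protein genes, 0 were past 2-fold in either direction. Both lists stand against the same 14.3% and 24% of all genes.

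Over all 42 lists with measured members, 16 had a median log2 ratio above 0 in sums and 26 below 0. Of all measured genes, 38.85% were higher in sums and 61.15% lower, so the lists were split much as all genes were. In medians of cells, 32 lists were above 0, 10 at 0 and 0 below it, and the median of all measured genes was 0.

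**Figure D5:**
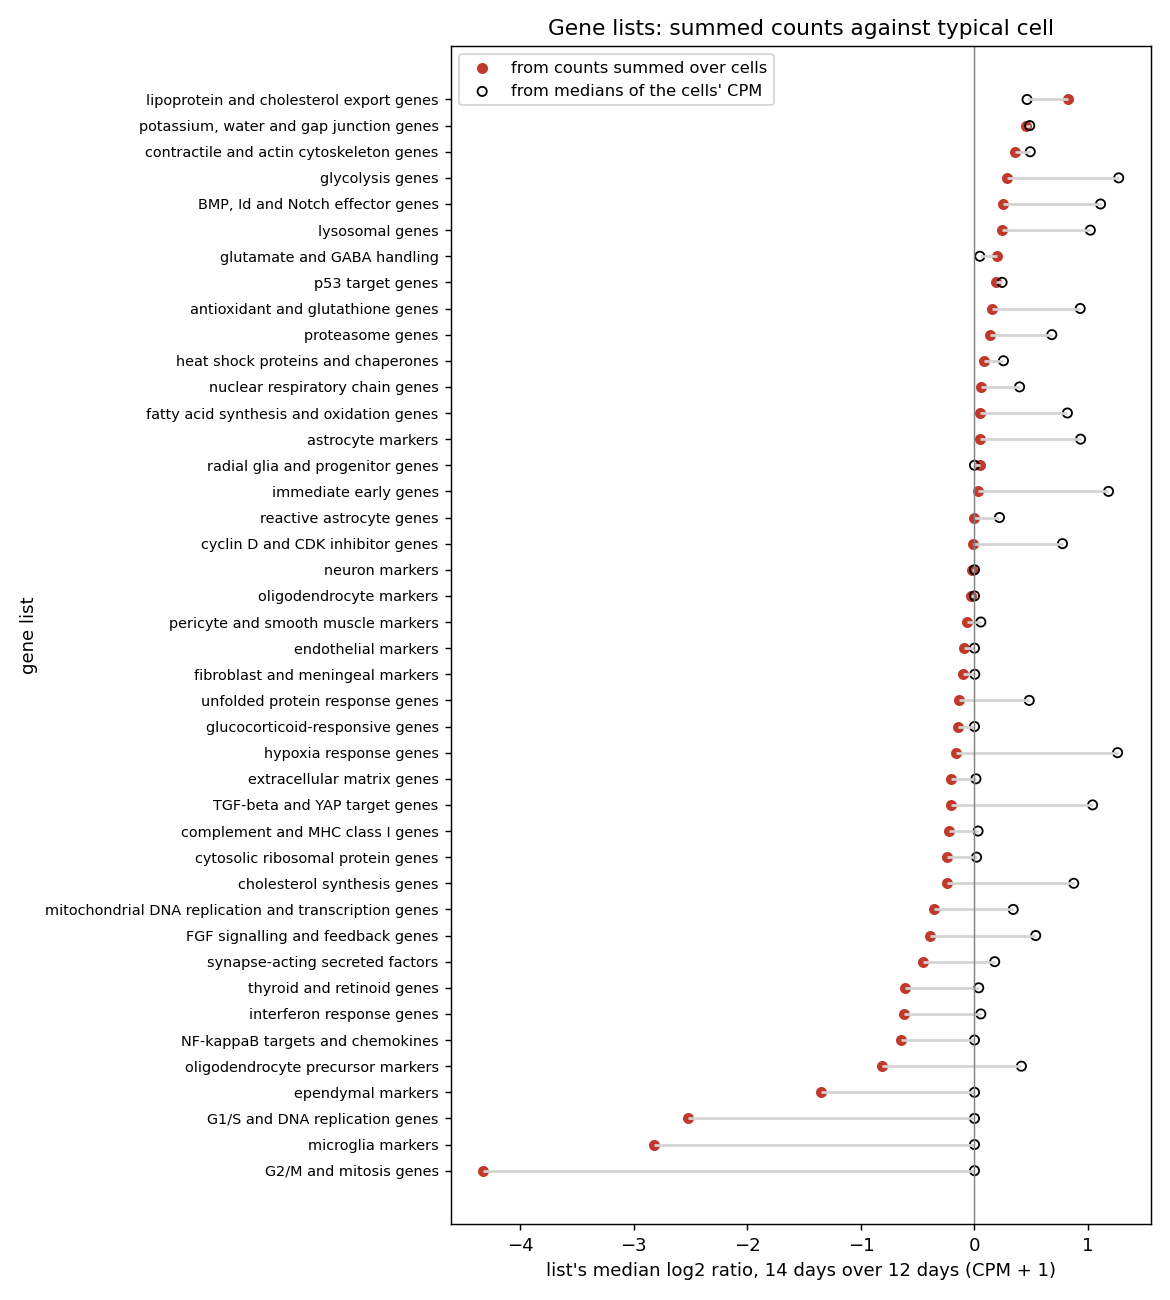
Median log2 ratio (14 days over 12 days, CPM plus 1) of each of 42 gene lists, from counts summed over cells (red) and from medians of the cells' CPM (open). The G2/M, G1/S and microglia lists stand at -4.33, -2.53 and -2.82 in sums and at 0 in medians of cells. Genes with a 12-day median of 0 cannot be lower in medians of cells.

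Among genes that met the stricter rule, the 10 with the largest excess of detection at 14 days were Daam2, Hid1, Psmb7, Rab22a, Poc5, Atat1, Aspscr1, Spsb3, Shc4 and Mpv17l2, detected in 4 or 5 of the 5 14-day cells and in 2 to 19 of the 70 12-day cells. Daam2, a formin of Wnt signalling, had 26.2, 88.1, 136, 7.39 and 73.5 CPM, against a 12-day median of 0.384, with all 5 above it. Psmb7, a catalytic subunit of the proteasome, had 20.1, 5.53, 171, 23 and 9.8 CPM, all above the 12-day upper quartile of 3.43. Rab22a, a GTPase of endosomes, had 173, 15.4, 155, 8.27 and 52.1 CPM, against a 12-day median of 1.19. Atat1, the tubulin acetyltransferase, had 8.89, 15.7, 48.7, 25.5 and 26 CPM, against a 12-day median of 0.329. In these 4 genes the highest 12-day cells reached 31 to 418 CPM, so the ranges overlapped. The further 5 were Sema3b, a secreted semaphorin, Grin3a, an NMDA receptor subunit, Zmym6, Asap3 and Fam229b. Sema3b had 0.121, 249.3, 35.5, 198 and 231 CPM, against a 12-day median of 0.262. Shc4, an adaptor of receptor kinases, had 1341 CPM in cell 3 and 0 to 16.1 in the others, and Hid1, a protein of secretory granule formation, had 20, 33.5, 0.0598, 16.6 and 11 CPM, against a 12-day median of 0.

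The 10 with the largest deficit of detection at 14 days were Bex4, Rai1, Gtf2h3, Rnpc3, Psmg1, Wdr12, Man2a1, Grpel2, Tank and Nmt2, detected in 0 of 5 14-day cells and in 34 to 43 of 70 12-day cells. With a single count taken as detection, the direction turned for Rai1 and Grpel2, which were then detected in a larger share of 14-day cells, by 12.9 and 10 percentage points. Bex4 had 0, 3.43, 0, 1.63 and 0.237 CPM at 14 days, against 0, 18.3 and 670 CPM as the lowest, median and highest 12-day cells, and was detected in 43 of 70 (61.4%, 49% to 72.8%). Gtf2h3, a subunit of the repair and transcription factor TFIIH, had 0, 7.84, 0.0598, 3.23 and 0.395 CPM, against a 12-day median of 8.38. Rnpc3, a protein of the minor spliceosome, had 0.121, 0.0446, 0, 0.103 and 3.6 CPM, against 6.1, and Psmg1, a proteasome assembly chaperone, had 0, 2.99, 0, 0 and 0.158 CPM, against 6.81. All 5 14-day cells were under the 12-day median in these 4 genes. Wdr12, a factor of ribosome assembly, had 0.0404, 0.312, 0, 0.259 and 3.48 CPM, against 4.66. The further 5 were Vps4b, an ATPase of membrane scission, Hspa14, Caml, Ggh and Vgll3, each detected in 1 or 2 of 5 14-day cells and in 39 to 51 of 70 12-day cells. Vps4b had 160, 166, 0, 1.47 and 0.0791 CPM, against a 12-day median of 143, and so split the 14-day cells.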

How the data were processed

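RNA of single mouse cortical astrocytes in primary culture was sequenced from polyA libraries made with the Illumina TruSeq Stranded kit, per the labels. Per the submitters' processing notes, which give no role or order, bcl2fastq2 2.17, STAR, HTSeq and the build mm10 (GRCm38) were used. The tools' other versions, strand setting and annotation: not given in the sources used here. Whole-number gene counts, not normalized, were deposited for 21956 rows and 158 libraries. Without a stated strand setting, reads of overlapping and antisense genes cannot be told apart. Depth is given with the cells.

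Counts were divided by each cell's or group's total (CPM), and 27 rows with date-like names were left unnamed. Cells were collected 1 at a time, and no doublet caller or cell filter was applied. Each cell was thinned to 1000000 counts (seed 7) for detection. Log2 ratios used a pseudocount of 1 CPM. Intervals (95%, exact Poisson or Clopper-Pearson) cover counting error only, because amplified reads are not independent molecules. Transcript GC content and gene positions came from GENCODE vM21 on GRCm38. Genes were named, 15 per direction, from those at 10 CPM or more in a group that met the stricter rule: 10 by difference in detection, passing over predicted genes, and 5 further at 100 CPM or more by difference of medians over cells. A few list members are not reported here by name, but count in their lists. List members named in the text are partly the 4 per list with the largest difference in detection and partly chosen after their values were seen. The groups compared and the 43 gene lists were chosen with earlier results of these data known. Random draws of 12-day cells were not made, since reassigning cells tests no condition. Alternatives used edgeR 4.0.16 factors, DESeq2 1.42.0 size factors, other pseudocounts and filters, and fewer cells; no count model was fitted. Scripts ran in Python 3.11.15 with scipy 1.17.1 and were tested on simulated data.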

Additional observations from a re-analysis of the deposited data

Results flagged for a closer look

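In groups of 5, a cell was marked when its gap to the nearest other cell exceeded 0.71 of the range (Dixon's 95% value). For single genes the gap was taken on log2 of CPM plus 1, while the gene values below are in CPM. Of 78 sets of 14-day values examined, 10 held such a cell. The rule marks about 1 in 20 sets when values are independent and normally distributed. These sets share the same 5 cells and some hold values near 0, so the 10 cannot be set against that rate. Cell 3 stood far below the others for the Arf regulator Asap3, with 0 CPM against 78.1 to 221.2 in the others. Among genes low at 14 days, 1 cell stood above the rest for Rnpc3 (3.6 CPM in cell 5), Psmg1 (2.99 CPM in cell 2), Wdr12 (3.48 CPM in cell 5) and Nmt2 (6.18 CPM in cell 4). The count-weighted GC content of cell 1 (48.33%) lay below the other 14-day cells. Among median log2 ratios of gene lists per cell against the 12-day sum, cell 4 stood above the others for G2/M and mitosis genes (-3.41) and cell 2 for oligodendrocyte markers (-0.017). For the oligodendrocyte markers the other cells all stood at -0.0296, so the difference was very small. The median member of that list was detected in 0% of the cells of either age. Cell 3 stood below the others for lipoprotein and cholesterol export genes (-3.41) and for proteasome genes (-3.15).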

How the results depend on the processing

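No paired analysis was possible because the labels give the cells no shared replicate numbers. Of 102 alternative values for counts of genes, 73 stayed within 1.5 times. Of 754 for list medians, 710 moved by less than the spread over the 14-day cells, as did 1722 of 1916 for single genes. For detection, 25 of 240 moved further and 2 turned round. The 14-day cells differed widely, with a spread of up to 2.8 log2 units for a list, so large shifts could still fall within it. The causes of the shifts below were not tested unless stated. Genes higher by the stricter rule made up 1.85% of those measured with TMM factors, 1.25% with DESeq2 size factors, 2.02% with a pseudocount of 5 CPM and 5.51% against 12-day cells of the same title range, in place of 3.16%. Those lower made up 12% with the pseudocount of 5, in place of 19.6%. When only genes averaging 10 CPM could count, they made up 9.14% of the same 16662 measured genes. Fewer genes were tested there, so part of that fall is by construction. Genes 2-fold higher numbered 1494 with DESeq2 size factors, 4370 with medians of cells and 783 at 4-fold. Genes 2-fold lower numbered 2617 with the pseudocount of 5, 2015 among genes averaging 10 CPM, 645 with medians of cells and 1800 at 4-fold. In medians of cells, genes with a 12-day median of 0 could not count as lower. The median log2 ratio of all genes was -0.09, and -0.19 with TMM or -0.26 with DESeq2 factors.

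Genes with every 14-day cell above the 12-day upper quartile numbered 93 with TMM factors, 83 with DESeq2 factors and 306 in the title range, and 206 to 492 with a 14-day cell left out, the most without cell 3. Those above the median numbered 1179 in the title range and 852 to 2157 with a cell left out, again the most without cell 3. Those below the median numbered 185 with TMM factors, 204 with DESeq2 factors, 78 against 12-day cells with title numbers above 200, and 161 to 318 with a cell left out, the most without cell 2. With a cell left out fewer cells had to pass, which raises these counts by construction. The G2/M list's median was -2.71 with the pseudocount of 5, -3.3 in the title range and 0 with medians of cells, which also put the G1/S list at 0.

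Signs turned in a few cases. The ependymal list stood at 0.862 among genes averaging 10 CPM, and Cx3cr1 at 0.0482 in the title range. With a cell left out, Hspb1 ranged from -0.0416 to 2.37. With medians of cells, Aldh1l1 was at 3.42, Slc1a3 at 0.321, Ptprz1 at 0.178, Cdc20 at 0.0559, Cdk1 at 3.55, Mcm3 at 0.0838 and Slc7a11 at 0.274. At 1 count for detection, Rai1 was detected in 12.9 and Grpel2 in 10 percentage points more of the 14-day cells. Medians of cells, counts by position among the 12-day cells, and the omission of 4 12-day cells with microglial RNA or 2 dominated by few genes were chosen after seeing the data. With 5 cells, a gene in no 14-day cell may still be in up to 52.2% of such cells.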
